A study of Mus musculus with 7 samples.

Results

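The 10 genes described here are linked to hair cell fate in the inner ear and were followed across 7 RNA sequencing libraries of cochlear supporting cells. They were Atoh1, Pou4f3, Gfi1, Barhl1, Lhx3, Insm1, Ikzf2, Rbm24, Rasd2 and Mycl, taken by name from the 48709 genes of each table, and all 10 were found. All encode DNA-binding factors except Rbm24, an RNA-binding protein, and Rasd2, a small GTPase. Mouse cochleae, per the labels taken at postnatal day 1, were kept in culture and given 200 nM TSA, 10 µM GSK-343 or DMSO for 48 h; they were then dissociated, and supporting cells positive for GFP were sorted. There were 2 TSA, 3 GSK-343 and 2 DMSO libraries, written below as TSA 1, GSK-343 1 and so on. All groups shared the culture medium, which contained EGF and FGF. TSA (trichostatin A) inhibits histone deacetylases, and GSK-343 blocks EZH2, which methylates histone H3 as part of a Polycomb complex. The labels name neither the mouse strain nor the gene that drives GFP, and do not say whether replicates came from separate animals or cultures, so every p-value reflects the spread among these libraries, which may be technical.

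Hair cells and supporting cells of the cochlea arise from common progenitors. The basic helix-loop-helix factor Atoh1 starts hair cell differentiation, and Notch signalling through Hes and Hey repressors holds it down in the cells that become supporting cells. Pou4f3 and Gfi1 act after Atoh1 and are needed for hair cells to survive, Barhl1 is a homeodomain factor needed for their long-term maintenance, and Lhx3 is a LIM-homeodomain factor of young hair cells. Insm1 and Ikzf2 shape the outer hair cell type, early and late in its development. Neonatal mouse supporting cells keep a limited ability to turn into hair cells.

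RefSeq promoter windows were at hand for 7 of the 10 genes (10 windows, GRCm38.p6, 250 bases before the start), and 4 that lie outside the annotated gene are shown: those of Atoh1, Barhl1 and Rasd2, which were higher with both inhibitors than in DMSO, and that of Rbm24, which passed the test with neither. They lie at chr6:64728875-64729124 (Atoh1, plus strand), chr2:28916669-28916918 (the upstream of 2 windows of Barhl1, minus strand), chr8:75213694-75213943 (Rasd2, plus strand) and chr13:46418050-46418299 (Rbm24, plus strand). Capitals mark E-boxes (CANNTG, which reads alike on both strands), the kind of site that basic helix-loop-helix dimers bind.
Atoh1: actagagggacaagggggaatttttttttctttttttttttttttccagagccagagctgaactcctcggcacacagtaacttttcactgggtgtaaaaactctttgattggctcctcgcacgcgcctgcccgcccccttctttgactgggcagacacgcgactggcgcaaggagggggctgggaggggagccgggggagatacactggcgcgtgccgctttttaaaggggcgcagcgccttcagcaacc
Barhl1: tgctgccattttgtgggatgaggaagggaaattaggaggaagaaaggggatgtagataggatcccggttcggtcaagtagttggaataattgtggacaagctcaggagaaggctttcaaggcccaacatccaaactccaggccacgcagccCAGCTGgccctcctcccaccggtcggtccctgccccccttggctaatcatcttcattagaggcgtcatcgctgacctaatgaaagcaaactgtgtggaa
Rasd2: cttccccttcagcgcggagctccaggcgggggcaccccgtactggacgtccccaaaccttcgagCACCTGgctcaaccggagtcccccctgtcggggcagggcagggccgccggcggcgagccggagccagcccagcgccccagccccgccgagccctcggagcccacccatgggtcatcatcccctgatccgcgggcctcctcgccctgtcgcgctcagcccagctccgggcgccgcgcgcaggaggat
Rbm24: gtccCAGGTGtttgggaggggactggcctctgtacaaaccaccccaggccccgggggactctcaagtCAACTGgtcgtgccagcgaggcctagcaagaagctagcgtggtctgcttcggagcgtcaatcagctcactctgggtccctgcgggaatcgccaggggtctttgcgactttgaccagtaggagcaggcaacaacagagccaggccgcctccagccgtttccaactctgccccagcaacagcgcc
The windows of Barhl1 and Rasd2 each held 1 E-box, that of Rbm24 held 2, and that of Atoh1 held 0. Over the 10 windows of these genes, 8 held an E-box, against 62.4% of 20054 windows of protein-coding genes. The form CAGCTG, a subset of CANNTG, was in both Barhl1 windows and in 12.3% of all windows. The TATAAA box, sought on both strands, was in 1 Lhx3 window and in the Mycl window, against 11.2% of all. The ratio of observed to expected CpG was 0.73 for Atoh1, 0.40 for Barhl1, 0.78 for Rasd2 and 0.49 for Rbm24 in the windows shown, beside a median of 0.55 over all. Of the 10 windows, 4 reached a ratio of 0.6, as did 46.7% of all windows.

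Total expected counts were 2724381 to 2963228 under TSA, 3398893 to 4248336 under GSK-343, and 5124247 to 5974230 in DMSO. The median gap between gene length and effective length in the tables was 208.21 to 212.69 bases in the 5 treated libraries, against 49 bases in DMSO, a gap that depends on read or fragment length, so treatment and this difference in library layout cannot be told apart in any comparison with DMSO. Nuclear protein-coding genes held 78.2% to 93.4% of the counts in the treated libraries, and 62.5% and 63.4% in DMSO. The mitochondrial genome held 11.4% in TSA 1 and 19.1% in TSA 2, 4.31% to 9.44% under GSK-343, and 26.8% and 25.5% in DMSO, and 18346 to 19251 genes were detected under TSA, 15916 to 17278 under GSK-343, and 25166 and 28754 in DMSO. The 30 supporting cell markers, which check the sorted type, summed to 11054 to 13933 CPM under TSA, 26575 to 30267 CPM under GSK-343, and 20706 to 24586 CPM in DMSO. The order of these sums is not that of a typical marker: the mean log2 CPM of those tested was 6.41 to 6.90 under TSA, 7.40 to 7.61 under GSK-343, and 7.92 to 7.98 in DMSO, and S100a1 alone had 1238 and 1260 CPM under TSA, 3527, 7046 and 7850 CPM under GSK-343, and 645 and 456 CPM in DMSO. CPM here are TMM-normalised counts scaled to a common library size, and TPM are the deposited values per transcript length. TPM were not TMM-normalised. On log2(TPM + 1) the median log2 fold change of all genes against DMSO was 0.67 under TSA and 0.24 under GSK-343. TPM differences from DMSO include this offset. The DMSO libraries serve both comparisons with DMSO, so those results are not independent of each other.

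Between the compounds, no member passed the test. Of the 10 genes, 0 were called higher and 0 lower under TSA than under GSK-343 in edgeR's quasi-likelihood test, with adjusted p taken over 14907 genes, of which 5.04% were called higher and 5.68% lower (10.7% in either direction). At an unadjusted p under 0.05, 1 was higher (Gfi1) and 1 lower (Mycl), where 27.9% of all genes tested fell under 0.05 in either direction. DESeq2's Wald test and limma on TPM also called 0. Insm1 was left untested by the low-count filter.

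Against DMSO, 6 of the 10 genes rose under TSA (Atoh1, Pou4f3, Gfi1, Barhl1, Lhx3 and Rasd2), beside 13.1% of all genes tested. Under GSK-343 7 rose, the same 6 and Mycl, beside 18.1% (39.6% were called in either direction). Ikzf2 and Rbm24 passed the test in neither, and 0 fell in either, beside 16.1% of all genes lower under TSA and 21.5% lower under GSK-343; at an unadjusted p under 0.05 also 0 fell, and DESeq2 and limma called 0 lower. Pou4f3, Gfi1, Barhl1 and Lhx3 passed the low-count filter only through the treated libraries, so their tests against DMSO were made because they were high there. The members were also chosen with earlier results of these data known, so their counts of calls are no independent test. CPM ranges did not overlap, with TSA above DMSO, for every member but Rbm24, beside 33.0% of all genes tested (Insm1 is among them with 5 and 1 counts under TSA); with GSK-343 above DMSO it held for every member but Insm1 and Ikzf2, beside 28.6%. With 1 library left out at a time, the calls under TSA were 1 without DMSO 1 (Gfi1) and 2 without TSA 1 (Pou4f3 and Barhl1). Under GSK-343 they were 4 without DMSO 1, 4 without DMSO 2 and 4 without GSK-343 1. Atoh1, Barhl1 and Mycl passed under GSK-343 whichever library was left out, whereas each of the 6 calls under TSA was lost without at least 1 library.

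**Figure D1:**
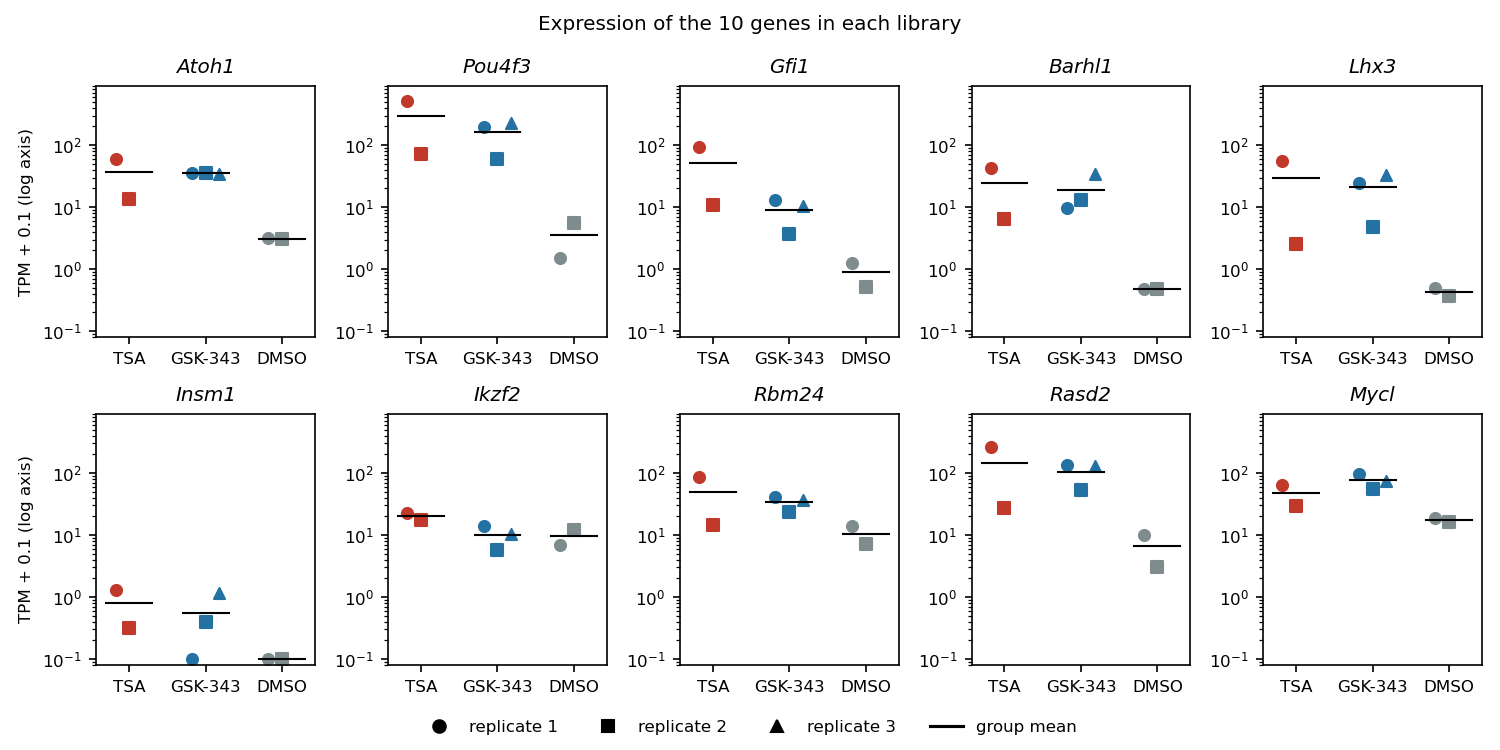
Deposited TPM of the 10 genes in each library, on a log axis with 0.1 added so that zeros can be drawn. Points are libraries, with shapes for replicates, and bars are group means. TSA 1 lies above TSA 2 in every panel, and the DMSO points of Atoh1, Pou4f3, Gfi1, Barhl1, Lhx3 and Rasd2 lie below all treated points.

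Atoh1 (ENSMUSG00000073043.5, chr6:64729125-64731245, plus strand), the factor that starts hair cell differentiation, was at 59.33 and 13.44 TPM under TSA, 35.94, 35.84 and 33.80 TPM under GSK-343, and 3.04 and 3.0 TPM in DMSO. All treated libraries stood above both DMSO libraries. The GSK-343 libraries were within 1.12-fold of each other in CPM, while TSA 1 was 3.68 times TSA 2. The log2 fold change (± SE) was 2.28 ± 0.60 for TSA against DMSO (adjusted p = 0.0119) and 2.66 ± 0.58 for GSK-343 against DMSO (adjusted p = 0.00252). The TSA value was 1.10 without TSA 1 (adjusted p = 0.290) and 2.23 without DMSO 1 (adjusted p = 0.0651). Between TSA and GSK-343 it was -0.39 ± 0.51, with a 95% interval of -1.48 to 0.71.

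Pou4f3 (ENSMUSG00000024497.3), a POU-domain factor needed for hair cell survival, had the highest TPM of the 10 genes in each treated library: 517.56 and 71.10 under TSA, and 192.65, 60.51 and 228.47 under GSK-343, against 1.39 and 5.45 in DMSO. TSA 2 and GSK-343 2 were close to each other and lower than the other treated libraries, but all 5 lay above DMSO. In CPM, Pou4f3 averaged 259 ± 263 under TSA (SD, n = 2), 195 ± 114 under GSK-343 (SD, n = 3) and 7.72 ± 6.78 in DMSO (SD, n = 2). The log2 fold change was 4.67 ± 1.02 for GSK-343 against DMSO (adjusted p = 0.00572). It was 5.08 ± 1.06 for TSA against DMSO (adjusted p = 0.00752), and lost the call without DMSO 1 (adjusted p = 0.0769) and without GSK-343 1 (0.0573). The GSK-343 call was lost without the same libraries (0.0632 and 0.0629).

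Gfi1 (ENSMUSG00000029275.17, chr5:107716657-107726036, minus strand), a zinc finger repressor, had the largest log2 difference between the compounds among the 9 members tested. It was at 93.29 and 10.79 TPM under TSA, 12.94, 3.55 and 10.48 TPM under GSK-343, and 1.17 and 0.41 TPM in DMSO. TSA 2 fell within the GSK-343 range, so the higher TSA mean came from TSA 1. The log2 fold change of TSA against GSK-343 was 2.09 ± 0.80 (95% interval 0.37 to 3.81, adjusted p = 0.106), and 0.05 without TSA 1. With no low-count filter it was 2.06 (adjusted p = 0.00544). Against DMSO, Gfi1 rose by 5.06 ± 1.09 under TSA (adjusted p = 0.00506) and by 2.97 ± 1.00 under GSK-343 (adjusted p = 0.0311). The TSA call was lost without TSA 1 (3.08, adjusted p = 0.0704). The GSK-343 call was lost without DMSO 2 (2.19, adjusted p = 0.184), without GSK-343 1 (0.0692), without GSK-343 3 (0.0653), and with a trend on GC content and length removed per library (1.95, adjusted p = 0.144), and in limma on log2(TPM + 1) (2.36, adjusted p = 0.0970). The DMSO libraries held 12 and 1 counts. A non-coding gene, A430072P03Rik, overlaps Gfi1 on the opposite strand and had 21 counts in TSA 1 and 0 in the other libraries; the labels do not say whether reads were counted by strand, so the reads of such pairs cannot be told apart.

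Barhl1 (ENSMUSG00000026805.14, chr2:28907679-28916668, minus strand) had 134 and 23 counts under TSA, 34, 62 and 196 under GSK-343, and 3 in each DMSO library. It was higher in every treated library, with GSK-343 3 and TSA 1 the highest. Its log2 fold change was 4.87 ± 1.04 for TSA against DMSO (adjusted p = 0.00386) and 4.95 ± 1.01 for GSK-343 against DMSO (adjusted p = 0.00177). Pooled over libraries, the CPM ratio to DMSO was 31.1 under TSA (exact 95% interval 14.0 to 86.0) and 33.7 under GSK-343 (15.3 to 92.6), intervals that cover counting error only. Without DMSO 1 the TSA value was 4.79 (adjusted p = 0.0568). Between the compounds the log2 fold change was -0.08 ± 0.73.

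Lhx3 (ENSMUSG00000026934.15, chr2:26200212-26208289, minus strand) had 94 and 7 counts under TSA, 46, 20 and 148 under GSK-343, and 3 and 2 in DMSO. TSA 1 was 12.8 times TSA 2 in CPM, the widest gap between the TSA libraries among the members given a ratio, and GSK-343 3 was 7.03 times GSK-343 2. Its log2 fold change was 4.49 ± 1.26 under TSA (adjusted p = 0.0170) and 4.78 ± 1.23 under GSK-343 (adjusted p = 0.00726), both against DMSO. The TSA value was 1.77 without TSA 1 (adjusted p = 0.364). Both calls were also lost without DMSO 1 (0.121 for TSA and 0.0797 for GSK-343) and without DMSO 2 (0.129 and 0.0873), and in limma on log2(TPM + 1) (0.101 and 0.0642). The pooled CPM ratio to DMSO was 24.0 under TSA (exact 95% interval 9.95 to 75.5) and 29.7 under GSK-343 (12.5 to 92.3). These intervals cover counting error only and leave out the spread between libraries. Most of the pooled TSA counts came from TSA 1. The antisense gene Gm27196 overlaps Lhx3 and had at most 10 counts in a library.

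Insm1 (ENSMUSG00000068154.5, chr2:146221921-146225020, plus strand), a zinc finger factor of nascent outer hair cells, was near the limit of detection. It had 5 and 1 counts under TSA, 0, 2 and 8 under GSK-343, and 0 in both DMSO libraries. A count of 0 allows up to 3 counts, or 0.674 and 0.782 CPM in the DMSO libraries. TSA 1 (1.40 CPM) and GSK-343 3 (1.85 CPM) lay above these limits, and the other treated libraries did not. With no low-count filter, edgeR's adjusted p was 0.263 for TSA and 0.189 for GSK-343, both against DMSO.

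Ikzf2 (ENSMUSG00000025997.13, chr1:69531214-69687245, minus strand), the zinc finger factor of maturing outer hair cells, passed the test in no comparison. It was at 22.54 and 17.17 TPM under TSA, 14.06, 5.55 and 10.27 TPM under GSK-343, and 6.67 and 12.0 TPM in DMSO. Both TSA libraries were above DMSO, and GSK-343 overlapped it. It had 197 and 198 counts under TSA, 201, 82 and 232 under GSK-343, and 214.53 and 202.20 in DMSO. In CPM it averaged 56.6 ± 2.05 under TSA (SD, n = 2), 43.5 ± 20.5 under GSK-343 (SD, n = 3) and 50.5 ± 3.09 in DMSO (SD, n = 2). TSA 1 and TSA 2 were within 1.05-fold of each other, unlike the other members. Its log2 fold change was 0.17 ± 0.47 for TSA against DMSO (95% interval -0.84 to 1.17) and -0.21 ± 0.43 for GSK-343 against DMSO (-1.13 to 0.70). On log2(TPM + 1) limma gave 1.05 for TSA against DMSO (adjusted p = 0.166). The median of all genes in that fit was 0.67, against -0.055 in the main fit. After removal of a GC content and length trend, the GSK-343 value turned to 1.64 (adjusted p = 0.00936) and the TSA value moved to 1.20 (adjusted p = 0.0557). The longest Ikzf2 transcript has 9278 bases and 40.1% GC, and the other members have 2121 to 3666 bases and 50.2% to 62.0% GC. Gm28112 and Gm29112, non-coding genes on the same strand within Ikzf2, had at most 1 count in a treated library, and 6 and 36 (Gm28112) and 4 and 32 (Gm29112) in DMSO.

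Rbm24 (ENSMUSG00000038132.5, chr13:46418434-46431095, plus strand), which in mouse hair cells regulates splicing, was at 85.0 and 14.25 TPM under TSA, 40.53, 23.08 and 36.16 TPM under GSK-343, and 13.68 and 7.0 TPM in DMSO. TSA 2 lay close to DMSO. Its log2 fold change was 1.02 ± 0.60 under TSA (adjusted p = 0.218) and 0.89 ± 0.56 under GSK-343 (adjusted p = 0.223), both against DMSO. Without TSA 1 the TSA value was -0.51, and without TSA 2 it was 1.80 (adjusted p = 0.0268). Scaled by total counts it was 1.79 (adjusted p = 0.0430), but that scaling moved the median of all genes from -0.055 to 0.65.

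Rasd2 (ENSMUSG00000034472.13, chr8:75213944-75224113, plus strand), a Ras-related GTPase, was at 263.51 and 26.82 TPM under TSA, 133.93, 52.52 and 128.14 TPM under GSK-343, and 9.95 and 2.95 TPM in DMSO. Every treated library was above DMSO, with TSA 2 the lowest of the 5. Its log2 fold change was 3.23 ± 0.91 under TSA (adjusted p = 0.0237) and 3.22 ± 0.87 under GSK-343 (adjusted p = 0.0149), both against DMSO, and 0.01 ± 0.75 between the compounds (95% interval -1.65 to 1.68). Without TSA 1 the comparison of TSA with DMSO gave 1.08 (adjusted p = 0.271). The TSA call was also lost without DMSO 1, DMSO 2 or GSK-343 1 (0.0772, 0.174 and 0.0933), and the GSK-343 call without DMSO 1, DMSO 2, GSK-343 1 or GSK-343 3 (0.0504, 0.143, 0.0927 and 0.0568). After removal of the GC content and length trend the GSK-343 value was 2.20 (adjusted p = 0.0572).

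Mycl (ENSMUSG00000028654.13, chr4:122995652-123002485, plus strand), a MYC-family factor, was the member whose CPM ranges did not overlap between the compounds, with TSA lower, as in 22.9% of all genes tested. It was at 63.56 and 29.36 TPM under TSA, 97.13, 55.47 and 74.92 TPM under GSK-343, and 18.33 and 16.00 TPM in DMSO. In TPM the ranges of TSA and GSK-343 overlapped. In CPM it averaged 61.1 ± 24.6 under TSA (SD, n = 2), 130 ± 29.6 under GSK-343 (SD, n = 3) and 36.1 ± 10.1 in DMSO (SD, n = 2). The log2 fold change was -1.09 ± 0.39 for TSA against GSK-343 (95% interval -1.92 to -0.27, adjusted p = 0.0805). Mycl rose by 1.85 ± 0.40 under GSK-343 against DMSO (adjusted p = 0.00248), while TSA against DMSO gave 0.76 ± 0.42 (adjusted p = 0.186). Scaled by total counts the TSA value was 1.49 (adjusted p = 0.0184), but that scaling moved the median of all genes from -0.055 to 0.65.

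**Figure D2:**
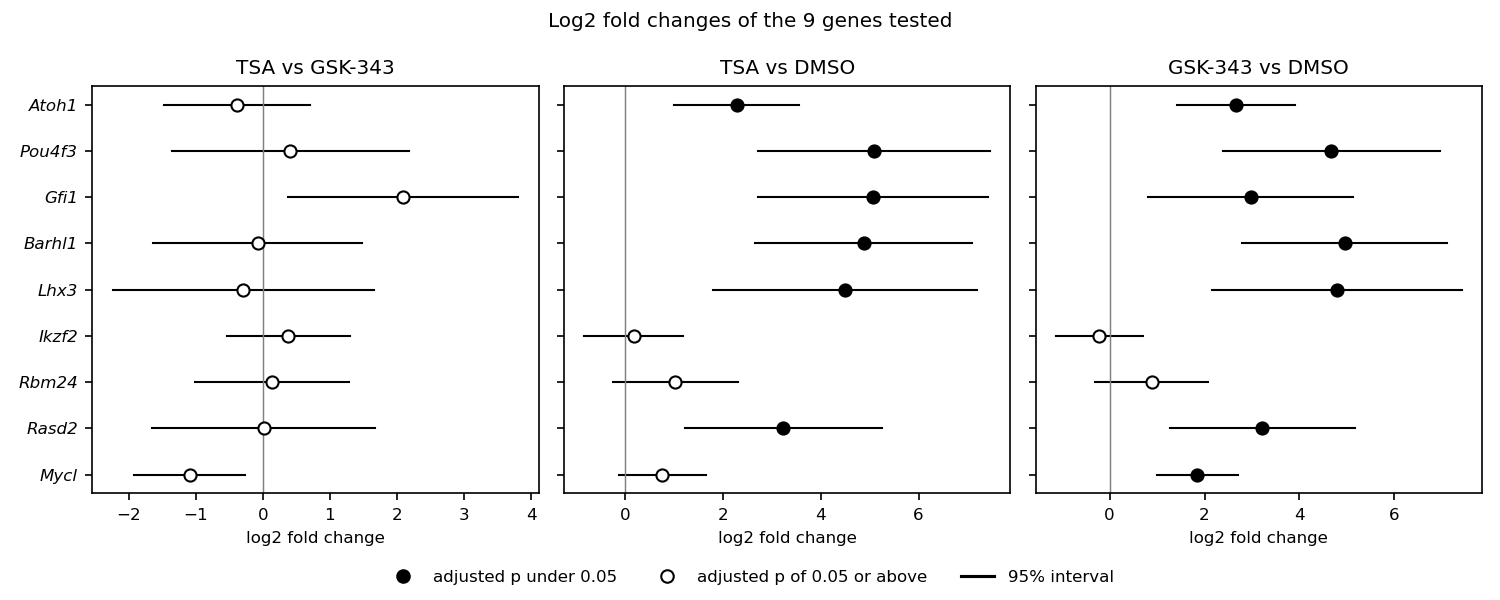
Log2 fold changes of the 9 genes tested, with 95% intervals from edgeR's quasi-likelihood fit; filled points passed an adjusted p of 0.05. Between TSA and GSK-343 no point is filled, while 6 and 7 are filled against DMSO, where Ikzf2 stays near 0.

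The libraries of a group differed widely, and most members moved together in this. In CPM, TSA 1 was above TSA 2 for 9 of the 10 genes, the exception being Ikzf2. With 0.5 CPM added, 7 of the 9 tested members were at least 3 times higher in TSA 1 than in TSA 2, against 5.49% of all 14907 genes. The 3-fold limit was chosen after the values were seen, and the members and lists with earlier results of these data known. GSK-343 3 had the highest CPM of its group for 7 members, and GSK-343 2 the lowest for 7. Structural genes of hair cells (hair bundle, synapse and channel proteins) were split alike: 32 of the 46 tested were at least 3 times higher in TSA 1 than in TSA 2, and 0 the other way. Of the 29 supporting cell markers tested 1 was, and of the 18 neuron markers 3 were and 1 went the other way. Among 18 other hair cell regulators 7 were and 1 went the other way. Mesenchyme markers were split in part, with 3 of 11 higher in TSA 1 by this limit, and glia markers were not, with 0 of 7.

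**Figure D3:**
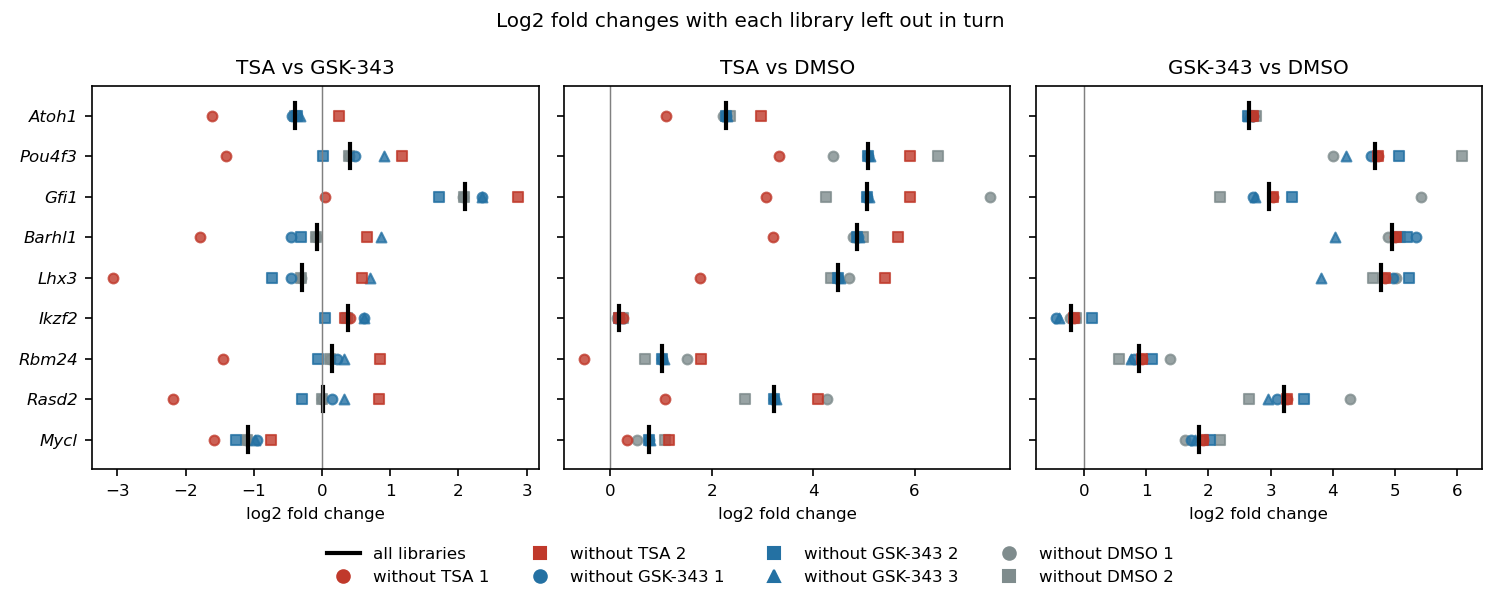
Log2 fold changes of the 9 genes with each library left out in turn; black bars give the value with all libraries. Leaving out TSA 1 moves the TSA comparisons furthest for most genes, bringing Lhx3 to 1.77 against DMSO, while the Atoh1 value for GSK-343 against DMSO stays between 2.63 and 2.77.

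The 49 structural genes summed to 4619 and 1533 CPM under TSA, 2082, 1785 and 3089 CPM under GSK-343, and 1514 and 1247 CPM in DMSO. In this sum TSA 2 stood close to DMSO 1, while summed TPM was 1464 in TSA 2 and 756 in DMSO 1. Detected structural genes numbered 49 of 49 in both TSA libraries, 45 to 49 under GSK-343, and 45 and 44 in DMSO. Myo7a, the motor protein used to mark hair cells, was at 120.96 and 15.85 TPM under TSA, 21.43, 6.84 and 28.64 TPM under GSK-343, and 10.56 and 1.03 TPM in DMSO. Otof, a calcium sensor of the hair cell synapse, was at 94.66 and 8.25 TPM under TSA, 12.86, 7.30 and 31.44 TPM under GSK-343, and 4.96 and 2.15 TPM in DMSO. In bulk samples a change in the number of cells of a type and a change in RNA per cell cannot be told apart, and the part of hair cells in the sort was not tested. Of the structural genes tested, 14 rose and 2 fell under TSA (median log2 fold change 1.72), and 13 rose and 2 fell under GSK-343 (median 1.17), both against DMSO, where the median of all genes was -0.055 and -0.042. The shares of all genes that rose and fell were 13.1% and 16.1% under TSA, and 18.1% and 21.5% under GSK-343. Some structural genes that rose were very low in DMSO, such as Grxcr2 (2.2 and 0 CPM) and Clrn1 (1.3 and 2.1 CPM). Genes this low in DMSO were tested because they were high under treatment, and could hardly be called lower. Between TSA and GSK-343, 3 structural genes were higher and 3 lower (median 0.37, and 0 over all genes), beside 5.04% and 5.68% of all genes.

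Set against the structural genes of the same library, the 10 members together had 2505 and 1717 counts per 10000 structural counts under TSA, 3538, 2077 and 2907 under GSK-343, and 1007 and 1173 in DMSO. The treated libraries were all above DMSO, and TSA and GSK-343 overlapped. For Atoh1 alone the values were 98.3 and 80.4 under TSA, 169, 217 and 127 under GSK-343, and 37.0 and 49.5 in DMSO. Atoh1 was lower in both TSA libraries than in each GSK-343 library by this ratio. Per 10000 structural TPM the groups overlapped, at 109.8 and 91.8 under TSA and 153.8, 177.1 and 105.2 under GSK-343. For Gfi1 they were 197 and 82.3 under TSA, 77.6, 27.3 and 50.2 under GSK-343, and 17.8 and 2.09 in DMSO. Over the 10 members, TSA lay wholly above GSK-343 in the ratio to structural counts for 1 (Gfi1), as for 9.4% of all genes tested, and wholly below it for 2 (Atoh1 and Mycl), as for 17%. With TPM this held for 1 (Gfi1, beside 13%) and 1 (Mycl, beside 10.7%). Groups of 2 and 3 cannot reach a p of 0.05 in an exact permutation test, and none was run. The structural counts rest unevenly on a few genes. Calb1 had 811 and 226 CPM under TSA, 130, 16.1 and 162 CPM under GSK-343, and 4.27 and 5.21 CPM in DMSO. Cldn9 had 164 and 136 CPM under TSA, 283, 571 and 686 CPM under GSK-343, and 247 and 229 CPM in DMSO. Triobp had 53.8 and 18.8 CPM under TSA, 73.7 to 184 CPM under GSK-343, and 250 and 175 CPM in DMSO. Myo6 had 792 and 408 CPM under TSA, 221 to 403 CPM under GSK-343, and 302 and 240 CPM in DMSO. The ratio is therefore not a level per hair cell. The value depended on the denominator: per 10000 Myo7a counts the members had 78990 and 122900 under TSA, 178900 to 362600 under GSK-343, and 88130 and 374200 in DMSO, where both treated groups overlapped DMSO.

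**Figure D4:**
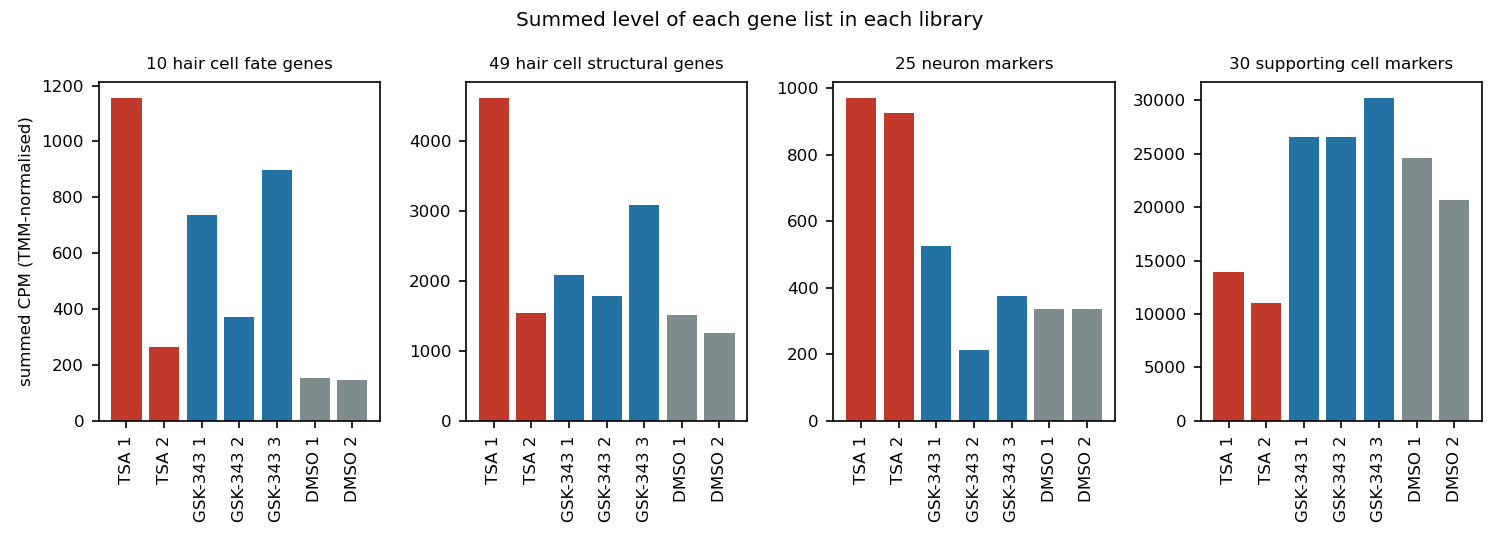
Summed TMM-normalised CPM of the 10 genes, 49 hair cell structural genes, 25 neuron markers and 30 supporting cell markers in each library. The 10 genes and the structural genes are highest in TSA 1 and GSK-343 3, the neuron markers in TSA 1 and TSA 2 (972 and 927 CPM), and the supporting cell sum in the GSK-343 libraries, where S100a1 alone has 3527 to 7850 CPM.

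The make-up of the summed level also differed between treated and DMSO libraries. Pou4f3 made up 43.0% and 37.1% of the members' summed TPM under TSA, 34.3%, 23.8% and 38.6% under GSK-343, and 2.53% and 11.5% in DMSO. Mycl led in both DMSO libraries with 33.3% and 33.7%, and stood at 5.28% and 15.3% under TSA and 12.7% to 21.8% under GSK-343. Rasd2 was among the top 3 members in every library but DMSO 2. Summed TPM itself was 1205 and 192 under TSA, 561, 254 and 591 under GSK-343, and 55.0 and 47.5 in DMSO. Levels of Gfi1, Barhl1 and Lhx3 in DMSO were between 0.27 and 1.17 TPM, and their order there rests on a few counts.

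**Figure D5:**
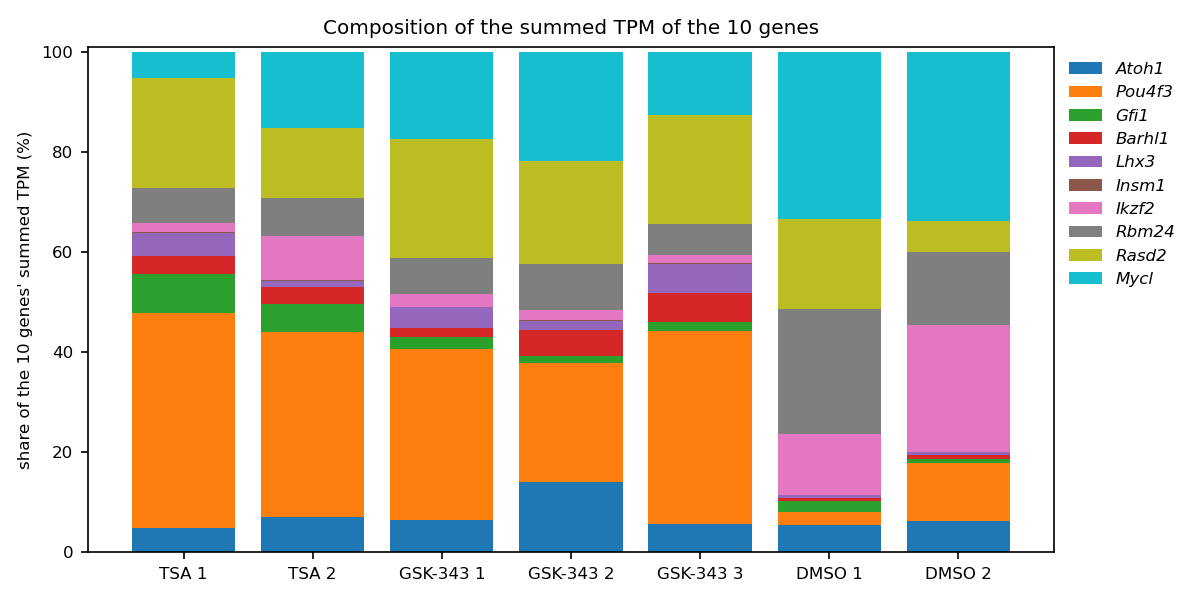
Share of each gene in the summed TPM of the 10 genes in every library, in percent. Pou4f3 is the largest part in the 5 treated libraries, at 23.8% to 43.0%, and Mycl in the DMSO libraries, at 33.3% and 33.7%.

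Of 13 inducers and partners of Atoh1, 12 were tested; 0 rose and 4 fell under TSA, and 0 rose and 1 fell under GSK-343, both against DMSO (medians -0.68 and -0.33), beside the 13.1% and 18.1% of all genes called higher. Lower calls made up 16.1% of all genes under TSA and 21.5% under GSK-343. Between the compounds 1 of the 12 was lower under TSA, beside 5.68% of all genes. It was Gata3, a zinc finger factor of the prosensory domain, with -1.30 ± 0.34 (adjusted p = 0.0275). Sox2, which marks prosensory and supporting cells and is needed for Atoh1 to be expressed, was at 96.2 ± 5.77 CPM under TSA (SD, n = 2), 153 ± 10.3 CPM under GSK-343 (SD, n = 3) and 185 ± 4.63 CPM in DMSO (SD, n = 2). It fell by 0.94 on the log2 scale under TSA against DMSO (SE 0.33, adjusted p = 0.0404). Gata3, Tcf3, a dimer partner of Atoh1, and Eya1, a transcriptional co-activator, fell under TSA too, and Eya1 under GSK-343.

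Repressors and antagonists of Atoh1 were tested for all 12 listed: 0 rose and 5 fell under TSA, and 2 rose and 4 fell under GSK-343, both against DMSO (medians -0.96 and -0.38). Over all genes, 13.1% rose and 16.1% fell under TSA, and 18.1% rose and 21.5% fell under GSK-343. Between TSA and GSK-343, 4 of the 12 were lower under TSA and 0 higher (median -0.53), beside 5.68% and 5.04% of all genes. The 4 were Hey1, Hes5, Heyl and Id1. Hey1, a Notch target, was at 158 ± 48.1 CPM under TSA (SD, n = 2), 691 ± 68.2 CPM under GSK-343 (SD, n = 3) and 875 ± 158 CPM in DMSO (SD, n = 2). Id1, which binds the dimer partners of Atoh1, was at 137 ± 46.4 CPM under TSA, 314 ± 93.1 CPM under GSK-343 and 69.4 ± 12.4 CPM in DMSO (SD, n = 2, 3 and 2). Hes5, a repressor of Atoh1, was at 254 ± 12.0 CPM under TSA, 656 ± 108 CPM under GSK-343 and 330 ± 41.4 CPM in DMSO (SD, n = 2, 3 and 2). Atoh1 itself averaged 28.8 ± 23.4 CPM under TSA, 37.7 ± 2.26 CPM under GSK-343 and 5.94 ± 0.454 CPM in DMSO (SD, n = 2, 3 and 2).

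Gfi1 and Insm1 repress through a SNAG domain that binds the histone demethylase LSD1 (Kdm1a) and its CoREST partners, a complex that also holds deacetylases Hdac1 and Hdac2. Of 11 such genes 10 were tested; 3 rose and 2 fell under TSA, and 4 rose and 1 fell under GSK-343, both against DMSO (medians 0.34 and 0.72). The shares of all genes that rose and fell were 13.1% and 16.1% under TSA, and 18.1% and 21.5% under GSK-343. Kdm1a rose with both, to 224 ± 33.4 CPM under TSA and 166 ± 67.9 CPM under GSK-343, against 80.8 ± 28.7 CPM in DMSO (SD, n = 2, 3 and 2). Hdac2 fell with both, by 1.37 (SE 0.36) under TSA and by 1.95 (SE 0.32) under GSK-343 on the log2 scale. Between the compounds 0 were higher and 1, the CoREST gene Rcor3, was lower under TSA (-1.62 ± 0.45, adjusted p = 0.0341). The shares of all genes were 5.04% higher and 5.68% lower.

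Among 23 other regulators of hair cells, 18 were tested; 6 rose and 2 fell under TSA, and 3 rose and 2 fell under GSK-343, both against DMSO (medians 0.47 and 0.28). Over all genes tested, 13.1% rose and 16.1% fell under TSA, and 18.1% rose and 21.5% fell under GSK-343. Lmo1, a LIM-only factor, had no counts in DMSO and stood at 27.7 and 2.93 CPM under TSA and 6.82 to 25.4 CPM under GSK-343. Srrm3, a splicing factor of neurons and hair cells, was at 29.7 and 3.23 CPM under TSA, 2.27 to 5.09 CPM under GSK-343, and 0.225 and 0 CPM in DMSO. Lmo1 and Srrm3 passed the low-count filter only through the treated libraries, so they could hardly be called lower. Jag2, a Notch ligand made by hair cells, was at 67.5 and 14.1 CPM under TSA, 56.4, 34.8 and 75.8 CPM under GSK-343, and 8.09 and 8.34 CPM in DMSO. Rfx3, a ciliogenic factor, fell with both, by 1.24 (SE 0.39) under TSA and by 2.49 (SE 0.35) under GSK-343 on the log2 scale. Lmo1, Srrm3 and Jag2 were higher in TSA 1 than in TSA 2, as most members were. Between the compounds 2 were higher under TSA, Tub (4.74 ± 0.98, adjusted p = 0.00965) and Rfx3 (1.25 ± 0.35, adjusted p = 0.0342), and 1 was lower, Rfx1 (-1.87 ± 0.51, adjusted p = 0.0305). Over all genes 5.04% were higher and 5.68% lower under TSA.

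Markers of other cell types moved in part with the treatments. Of 18 neuron markers tested 7 rose and 0 fell under TSA, both against GSK-343 (median 2.30) and against DMSO (median 2.54), and their sum was 972 and 927 CPM under TSA, 212 to 527 CPM under GSK-343, and 337 CPM in each DMSO library. Unlike the 10 genes, the neuron sum was alike in TSA 1 and TSA 2. Under GSK-343 against DMSO, 4 of the 18 neuron markers rose and 4 fell (median -0.32). Neurod1, a factor of developing neurons, was near the limit of detection. It was at 0.28 and 1.17 CPM under TSA, 0 in all 3 GSK-343 libraries, and 2.02 and 0 CPM in DMSO. Glia markers summed to 194 to 250 CPM under TSA, 454 to 787 CPM under GSK-343, and 143 to 157 CPM in DMSO, and 3 of the 7 tested rose under GSK-343 against DMSO. Mesenchyme markers ranged from 258 to 469 CPM and endothelial and blood markers from 8.68 to 42.8 CPM over all libraries. Melanocyte and stria markers ranged from 192 to 393 CPM, and most of that was Kcnj10 (94.4 to 235 CPM) and Slc12a2 (57.7 to 152 CPM). None of the other genes in that list exceeded 18.3 CPM (Pmel) in a library. Of the 29 supporting cell markers tested, 1 rose and 17 fell under TSA and 4 rose and 11 fell under GSK-343, both against DMSO, and 1 was higher and 11 lower under TSA than under GSK-343. Over all genes, 13.1% rose and 16.1% fell under TSA, and 18.1% rose and 21.5% fell under GSK-343, both against DMSO. Between TSA and GSK-343, 5.04% of all genes were higher and 5.68% lower under TSA. The part of these cell types in the members' values was not tested.

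By the root mean square difference of centred log2 CPM over the 7 libraries, the genes most like Atoh1 among 9427 were Ctbp2, Serpinb6a, Tjap1, Ica1 and Txndc15, at 0.28 to 0.31. The nearest member was Mycl, at 0.58 (rank 221). The genes most like Pou4f3 were Cdc25b, Slc52a3, Clrn1, Dync2li1 and Smoc2, at 0.50 to 0.76, with Barhl1 at rank 8 and Lhx3 at rank 14. Those most like Gfi1 were Acbd7, Fcho1, Cfap206, Mlf1 and Myo7a, at 0.63 to 0.71, with Rasd2 at rank 25. Clrn1, Acbd7 and Myo7a are in the structural list. These likenesses describe the same 7 libraries, including the offset between DMSO and treated ones. Ikzf2 was the member least like each of the 3.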

How the data were processed

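RNA of sorted supporting cells was made into libraries with a single-cell RNA library kit, per the labels' protocols. STAR, RSEM and DESeq2 and the build mm10 are named, with no further detail, per the submitters' processing notes; versions are not given in the sources used here. Each deposited table holds expected counts per gene, RSEM's estimated numbers of reads, in which an ambiguous read is split among genes and no scaling across libraries was applied. It also holds the authors' TPM, per the file headers, which take effective length into account and have the same sum in every library. Gene IDs without version were matched to GENCODE M21 (GRCm38): 48349 of 48709 matched.

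Expected counts were rounded and tested with edgeR 4.0.16 (R 4.3.3): filterByExpr by group (14907 genes), TMM factors, 1 model of 3 groups with 4 residual degrees of freedom, a robust quasi-likelihood fit (common coefficient of variation 0.43), Benjamini-Hochberg adjustment over all genes and a threshold of 0.05. The robust option was taken after the data were seen, when it gave the same number of calls as an earlier fit to these data; the fit without it, added after seeing the data, is among the alternatives. SEs were taken as the size of a log2 fold change divided by the root of its F statistic, and a 95% interval uses that SE. The procedure was tested on simulated data. Depth sets the precision: 3 counts equal 0.674 to 0.880 CPM, and such limits cover counting error only.

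Alternatives were DESeq2 1.42.0 size factors and Wald test, total count scaling, other filters, limma 3.58.1 on log2(TPM + 1) and log2(TPM + 0.1), only the 2 groups compared, the replicate number as a block, nuclear protein-coding genes, a trend on GC content and length removed per library, and each library left out. Named genes were all members, up to 4 genes per list by adjusted p, Sox2, Hes5, Myo7a and Otof, and the 5 genes nearest in profile to Atoh1, Pou4f3 and Gfi1. Neurod1 was named after its values were seen. The members and lists were chosen with earlier results of these data known. Promoter sequences are RefSeq's. Protein sequences were not used here. Figures were made with matplotlib 3.10.9 in Python 3.11.15.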

Additional observations from a re-analysis of the deposited data

How the results depend on the processing

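Leaving out 1 library at a time gave 1 to 7 members higher under TSA than in DMSO and 4 to 7 higher under GSK-343 than in DMSO; a group left with 1 library was assumed to vary like the others. Without the robust option the counts were 6 and 7, and 680 genes were higher and 745 lower under TSA than under GSK-343. In the fits with all libraries the counts were 5 to 8 and 5 to 7. These counts can hide changes in size and in the genes called. With the GC content and length trend removed, the members' median against DMSO was 2.54 under TSA and 1.95 under GSK-343. In the main fit it was 3.23 and 2.97. Without the trend Gfi1 and Rasd2 lost the GSK-343 call and Ikzf2 gained it. With no low-count filter 1 member (Gfi1) was higher under TSA than under GSK-343. Over all single-gene values, 439 kept their direction and their side of the threshold, 33 kept their direction and lost the call, 4 kept it and gained the call, and 36 changed sign, of which 1 (Ikzf2, GSK-343 against DMSO without the GC and length trend) also gained a call.

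Between TSA and GSK-343 small log2 values changed sign. Barhl1 was 0.05 with at least 50 counts in 2 libraries, 0.00 in DESeq2's test, 0.01 with DESeq2 size factors, 0.33 with the GC and length trend removed, 0.04 and 0.01 with limma (1 and 0.1 added to TPM), 0.54 with the replicate block and 0.24 with total count scaling. Lhx3 was 0.23 without the trend, 0.15 with the block and 0.04 with total counts. Rasd2 was -0.19 and -0.20 with limma, -0.01 with no filter and -0.22 with the block, and Rbm24 -0.03 with the block. Without the trend Atoh1 was 0.04 and Ikzf2 -0.44. With 1 library left out the ranges were -1.79 to 0.86 for Barhl1, -3.07 to 0.71 for Lhx3, -2.19 to 0.83 for Rasd2, -1.45 to 0.85 for Rbm24, -1.41 to 1.17 for Pou4f3 and -1.62 to 0.25 for Atoh1. Rbm24 ranged from -0.51 to 1.80 for TSA against DMSO. Ikzf2, for GSK-343 against DMSO, ranged from -0.45 to 0.13, and was 1.64 without the trend, 0.05 with limma at either pseudocount and 0.24 with total counts. The cause was not tested.

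Same-numbered replicates showed little tendency to deviate together (correlations -0.094 to 0.04). Within TSA and within DMSO the deviations of the libraries were mirror images, so these values cannot show whether the numbers pair samples. With the replicate block 5 members were higher under TSA and 6 under GSK-343 than in DMSO, and 0 differed between the compounds; Pou4f3 was 4.50 (adjusted p = 0.0907) under TSA and 3.78 (adjusted p = 0.110) under GSK-343.

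Per 10000 structural TPM the members stood at 2229 and 1310 under TSA, 2400, 1257 and 1841 under GSK-343, and at 727.1 and 810.6 in DMSO. Per 10000 Myo7a counts they stood at 78990 and 122900 under TSA, 180600, 362600 and 178900 under GSK-343, and 88130 and 374200 in DMSO.

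Total count scaling moved the median of all genes to 0.20 in the comparison of the compounds, and to 0.65 (TSA) and 0.42 (GSK-343) against DMSO. Higher and lower calls over all genes were then 1020 and 431 (752 and 846 with TMM), 3871 and 1307 (1957 and 2402), and 3948 and 2273 (2695 and 3208). With limma they were 834 and 173, 5039 and 2491, and 4122 and 3164. Without TSA 2, 83 genes were higher and 79 lower under TSA than under GSK-343. Depth limits Insm1, and Gfi1, Barhl1 and Lhx3 in DMSO.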
